A study of Homo sapiens with 72 samples.

Results

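The transcripts described here are those of the translation initiation and elongation factors of human cells, with the kinases, methyltransferases and repressors that carry their names. Members were genes whose symbol begins with EIF1 to EIF6 or with EEF1 or EEF2, without read-through genes and pseudogenes. This rule used no measured value, but it was chosen with earlier results of these data known. The rule found 70 of the 61541 gene identifiers in each table. Of these, 67 had an adjusted p-value in at least 1 of the 11 tables and 63 in every one. The base mean, the normalised reads averaged over the libraries of a table, was 100 or more in every table for 56 of them.

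The study concerned G3BP1, an RNA-binding protein that builds stress granules, the cytoplasmic bodies that collect stalled mRNA and initiation factors. In RNA immunoprecipitation with sequencing (RIP-seq), 3 immunoprecipitates and 3 inputs came from FlpIn 293 Trex embryonic kidney cells, in which stable FLAG-G3BP1 had been induced with 1 ug/mL tetracycline for 24 h. The RNA-seq used U2OS, an osteosarcoma line, in 2 experiments with 2 libraries per group. In the first, wild-type cells and G3BP1/2 knockout cells were untransfected, and knockout cells had received a G3BP1 transgene by Lipofectamine 24 h before. In the second, all 6 groups were G3BP1/2 knockout: untransfected, or 24 h after Lipofectamine transfection of wild-type G3BP1 or of the NTF2 deletion mutant, each without or with 200 uM sodium arsenite for 2 h. The remaining 48 libraries, from the editing-enzyme experiments of the series, were not used here. The labels give no mock transfection for knockout cells without transgene, so transfection and the transgene cannot be told apart in any comparison of rescue with knockout. Whether the knockout line was 1 clone is not given in the sources used here, and nothing says that libraries came from separate cultures, so p-values measure the spread between these libraries only.

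Translation begins when eIF2 carries the initiator tRNA to the small ribosomal subunit, where eIF3 recruits the mRNA that the eIF4F complex holds by its cap. eIF2B recharges eIF2, and 4 stress kinases (EIF2AK1 to EIF2AK4) phosphorylate its alpha subunit, which blocks that recharging, lowers initiation and brings on stress granules. Arsenite is known to act mainly through EIF2AK1 (HRI). After the subunits join, eEF1 brings each aminoacyl-tRNA and eEF2 moves the ribosome along. Many elongation factor and some eIF3 mRNAs begin with a C followed by a run of pyrimidines (the 5′ terminal oligopyrimidine or TOP motif), through which growth signalling controls their translation.

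Because such a start is a known feature of some of these mRNAs, and the RIP values below are set beside it, the annotated starts of 7 members are shown. They run from the members with the highest RIP values among those with such a start to the one with the lowest. Each is 30 bases of the transcribed strand, 20 before the start and 10 from it, from RefSeq on GRCh38.p14, with the run of C and T that begins at the start in capitals.
EEF1A1 (chr6:73521023-73521052, minus strand): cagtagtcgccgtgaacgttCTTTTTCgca
EEF1B2 (chr2:206159875-206159904, plus strand): attttccggtctcttcgggtCCTTTTTCCT
EIF3K (chr19:38619168-38619197, plus strand): gtcgtttccgtttccaccacCTCTTCCTgt
EIF3F (chr11:7987317-7987346, plus strand): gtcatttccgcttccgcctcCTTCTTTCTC
EEF2 (chr19:3985454-3985483, minus strand): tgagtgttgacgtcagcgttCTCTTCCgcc
EIF3D (chr22:36529157-36529186, minus strand): ccgctgcgcgcgcatgtttcCTCTTTTCCT
EIF4B (chr12:53006436-53006465, plus strand): cgtgattgcctcatccgggtCTTTTgcgtt
Of the 55 members with an entry in the table of starts, 13 (23.6%) began at 1 of their annotated starts with a C followed by 4 bases that are each C or T. The same was true of 4.07% of all 35116 starts, of 5.14% of all 27305 genes and of 48 of 68 ribosomal protein genes (70.6%). The other 6 members with such a start were EIF2A, EIF2D, EIF2S3, its retrogene copy EIF2S3B, EIF3M and EIF4A2. Whether transcription in these cells starts at the annotated base was not tested.

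Libraries held on average 12170926 normalised reads in genes for RIP, 44217175 to 46949956 for the tables of the first experiment and 11990915 to 17893716 for those of the second. Members took 1.28 to 2.71% of those reads. Normalised reads of every member were recovered as whole reads for each of the 18 RNA-seq libraries, but not for the RIP libraries. The 2 libraries of a group differed by a median of 0.04 to 0.10 on the log2 scale over 60 members. G3BP1 itself had 19095 and 18203 normalised reads in wild-type, 12696 and 12670 in knockout and 20450 and 20705 in rescue libraries of the first experiment, so its transcript persisted in the knockout. In the second experiment the authors' deposited table gave G3BP1 a log2 fold change of 7.31 (SE 0.04) in wild-type rescue over knockout and of 7.75 (SE 0.05) in the NTF2-deletion rescue over knockout. Of the 7 osteosarcoma markers, VIM, COL1A1, SPARC, SPP1, RUNX2 and ALPL were read in U2OS, with base means of 72390, 87411, 68055, 1188, 924 and 388 for knockout against wild type in the authors' deposited table. COL1A2 was at 17.5, below the blood marker PTPRC at 21.3, and HBB was at 8.32. The epithelial markers EPCAM and CDH1 were at 453 and 27.9. The bone markers moved in the comparisons below. For knockout over wild type COL1A1 and RUNX2 were at -2.73 and -1.38, and SPP1 and ALPL at 3.96 and 3.49 in the authors' deposited table. For knockout over rescue in the first experiment COL1A1 and RUNX2 were at -1.64 and -0.79 and ALPL at 1.18, so the first pair was higher in rescue and ALPL lower. In the second experiment the senses were opposite for wild-type rescue over knockout, with COL1A1 at -1.56 (SE 0.05), RUNX2 at -1.24 (SE 0.27) and ALPL at 0.55 (SE 0.19), as the authors' deposited table gave them. Their part in the member results was not tested. In the 293 cells of the RIP table the markers PAX2 and NEFL were at base means of 45.8 and 1078, and PTPRC was at 0.

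Some members carry reads that the counting could have split. EIF3C and EIF3CL are near-identical copies, as are EIF5A and EIF5AL1, and EEF1A1 has many processed pseudogenes. EIF4A1, EIF4EBP3, EEF1AKMT4 and EEF1E1 overlap read-through genes. EIF4A1, the main helicase of eIF4F, had only 205 to 298 normalised reads in the first experiment, and EEF1G, the gamma subunit of eEF1, was listed at 0 in every library of it. Values of these genes are uncertain, and EEF1G, EIF4E1B and 1 Y-linked member had no test in any table.

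RIP-seq asks which transcripts are found with G3BP1 more, or less, than their level in the cell predicts. The labels give no immunoprecipitate without FLAG-G3BP1, so RNA held by G3BP1 and RNA carried over unspecifically cannot be told apart. Among 67 tested members, 39 were higher in the immunoprecipitate and 13 lower in the authors' deposited table, against 24.7% and 31.4% of all 22856 tested genes. Of genes whose base mean reached 100, 44.4% and 38.6% were. The members' median log2 fold change was 0.56, beside -0.26 for all tested genes and 0.12 for those whose base mean reached 100. Members spanned -3.56 to 2.29. With the Wald statistics centred and divided by their robust spread over all genes, 14 members were called higher and 4 lower. Relative to the median gene of 0.12, 37 were higher and 15 lower. The shares of all genes called under these settings were not computed, so these counts have no background beside them.

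**Figure D1:**
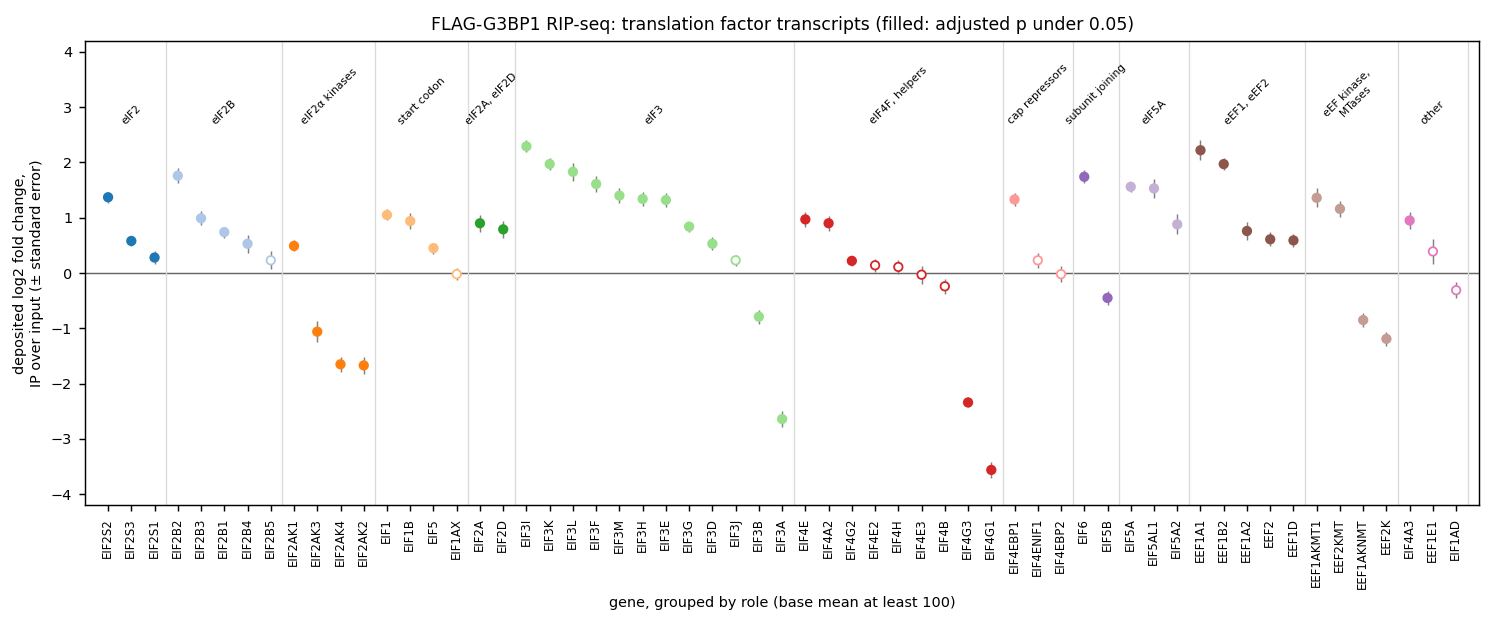
Deposited log2 fold change of each member whose base mean reached 100, immunoprecipitate over input (3 libraries each), grouped by role along the horizontal axis; bars are the authors' standard error and filled points passed the test. EIF3I and EEF1A1 sit highest at 2.29 and 2.22, and EIF4G1 and EIF3A lowest at -3.56 and -2.64.

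The subunits of eIF3, the scaffold of the initiation complex, differed most among themselves. Of 14, 9 were higher and 3 lower in the authors' deposited table, and the median was 1.08. In the authors' deposited table EIF3I (ENSG00000084623), a WD-repeat subunit, had the highest value, 2.29 (SE 0.11, adjusted p = 1.50e-90), followed by EIF3K at 1.97 (SE 0.11) and EIF3L at 1.83 (SE 0.16). EIF3A (ENSG00000107581), the largest subunit, was the lowest subunit at -2.64 (SE 0.15, adjusted p = 3.30e-71), and in the authors' deposited table EIF3B and EIF3C were at -0.79 (SE 0.13) and -0.70. Subunits of 1 complex therefore lay on both sides of the input level.

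eIF4F split in the same way. EIF4G1 (ENSG00000114867), the scaffold that bridges cap and ribosome, had the lowest value of all members in the authors' deposited table, -3.56 (SE 0.15, adjusted p = 9.07e-125), and its paralog EIF4G3 was at -2.34 (SE 0.09). The cap-binding protein EIF4E was at 0.97 (SE 0.13) and the helicase EIF4A2 at 0.90 (SE 0.14) in the authors' deposited table. EIF4B, EIF4E2, EIF4E3 and EIF4H, at -0.24, 0.14, -0.03 and 0.11 in the authors' deposited table, did not pass the test. EIF4EBP1, the repressor that competes with eIF4G for eIF4E, was at 1.33 (SE 0.12).

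All 5 tested subunits and forms of eEF1 and eEF2 were higher. In the authors' deposited table EEF1A1 (ENSG00000156508), which delivers aminoacyl-tRNA, was at 2.22 (SE 0.18, adjusted p = 1.54e-35), EEF1B2, its exchange factor, at 1.97 (SE 0.11), EEF1A2 at 0.76, EEF2 at 0.61 (SE 0.13) and EEF1D at 0.59. EEF2K, the kinase that inhibits eEF2, was at -1.19 (SE 0.13). The 3 eIF5A genes, whose product relieves stalled ribosomes, were higher too, with a median of 1.53. All but 1 of the eIF2 alpha kinases were lower: EIF2AK2 (PKR) was at -1.67 (SE 0.16), EIF2AK4 (GCN2) at -1.65 (SE 0.14) and EIF2AK3 (PERK) at -1.06 (SE 0.19), while EIF2AK1 (HRI) was at 0.49 (SE 0.10) in the authors' deposited table.

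The 13 members with a pyrimidine start had a median RIP log2 fold change of 0.90, with 11 higher (84.6%) and none lower. The 39 tested members with an annotated start lacking it had a median of 0.23, with 17 higher (43.6%) and 11 lower (28.2%). A list of 10 members that textbooks give as TOP mRNAs, of which 9 were tested, had a median of 1.32. In it 7 were higher (77.8%) and 1 lower (11.1%), and that 1 was EIF3A at -2.64. Of all tested genes 24.7% were higher and 31.4% lower, and of those whose base mean reached 100, 44.4% and 38.6%. All 85 tested ribosomal proteins, most of which have such a start, had a median of 1.20. The sequences shown above come from the 13 members and include both ends of their range, 2.22 for EEF1A1 and -0.24 for EIF4B. Gene length moved with the same values. Over 59 members whose base mean reached 100, Spearman's rho between the RIP fold change and the span of the gene in RefSeq, introns included, was -0.41, beside -0.51 over 9981 genes. The 14 members spanning under 10000 bases had a median of 1.00 and the 45 longer ones 0.49. These points share the same 6 libraries, and the part of span in the values above was not tested.

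**Figure D2:**
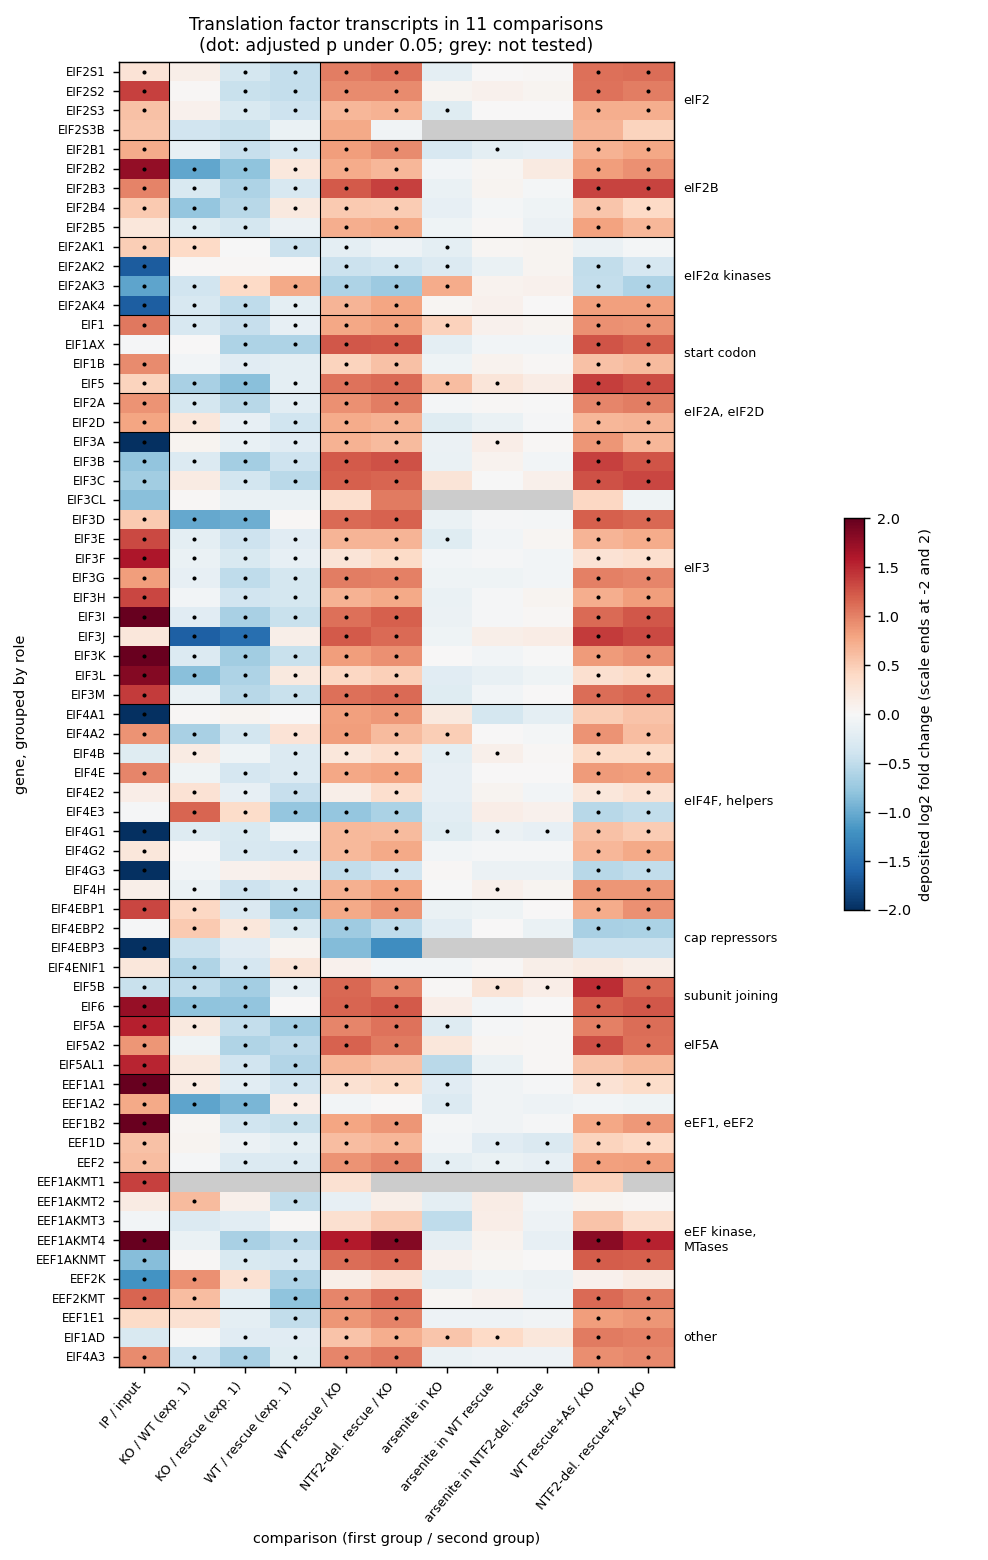
Deposited log2 fold change (colour, cut at -2 and 2) of 67 members (rows, grouped by role) in 11 comparisons (columns, first group over second); dots mark an adjusted p under 0.05 and grey cells had no test. The second-experiment rescue columns are red for most members and the arsenite columns near white, while EIF2AK2, EIF2AK3, EIF4E3, EIF4EBP2 and EIF4G3 are blue in the rescue columns.

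The first experiment compared knockout with wild-type cells and both with the rescue. Against wild type, 12 members were higher in knockout and 26 lower in the authors' deposited table, of 66 tested, where 18.4% and 19.4% of all 25724 tested genes were. Most members are among the 13774 well-read genes, those whose base mean reached 100, of which 27.8% were higher and 30.4% lower, beside 18.2% and 39.4% of members. The members' median was -0.08 and that of all genes 0.01. Taken as log2 ratios of the recovered reads, the members' median was -0.07 with all libraries. Without 1 or the other knockout library that ratio was -0.04 or -0.12. In these bulk libraries fewer cells of a kind and less RNA per cell cannot be told apart. No subunit of eIF2 passed the test, whereas 9 of 14 eIF3 genes, 4 of 5 eIF2B genes and both subunit-joining factors (EIF5B and EIF6) were lower and none of these 3 groups had a member that was higher.

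EIF3J (ENSG00000104131), a loosely bound eIF3 subunit that helps ribosomes recycle, changed most. It had 6154 and 6144 normalised reads in wild-type, 1970 and 1951 in knockout and 5611 and 5736 in rescue libraries. Both knockout libraries were thus far below all 4 others, and the authors' deposited table gave -1.64 (SE 0.06, adjusted p = 2.13e-143) against wild type and -1.51 (SE 0.06) against rescue. EIF3D (ENSG00000100353), the eIF3 subunit that can itself bind a cap, had 9778 and 9232 reads in wild-type, 4674 and 4637 in knockout and 9067 and 9475 in rescue libraries. Knockout was again below every other library, and wild type and rescue overlapped, with -1.03 (SE 0.06) against wild type and -0.98 (SE 0.05) against rescue in the authors' deposited tables.

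EIF2B2 (ENSG00000119718), the beta subunit of eIF2B, showed the same order with 2313 and 2224 reads in wild-type, 1115 and 1090 in knockout and 1952 in each rescue library. EIF6, which keeps the large subunit from joining too early, had 2454 and 2313 reads in wild-type, 1407 and 1313 in knockout and 2284 and 2472 in rescue libraries. In both genes no knockout library reached the lowest of the other 4. The authors' deposited table gave -1.04 (SE 0.09) for EIF2B2 and -0.81 (SE 0.09) for EIF6, knockout over wild type. EEF1A2, the eEF1A form of muscle and neurons, fell from 22175 and 20544 reads in wild-type to 10411 and 10158 in knockout libraries and stood at 18881 and 20011 in rescue. EIF3L, another peripheral eIF3 subunit, had 8202 and 7648 reads in wild-type, 4505 and 4427 in knockout and 6835 and 6966 in rescue libraries, so rescue lay between the others without overlap.

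**Figure D3:**
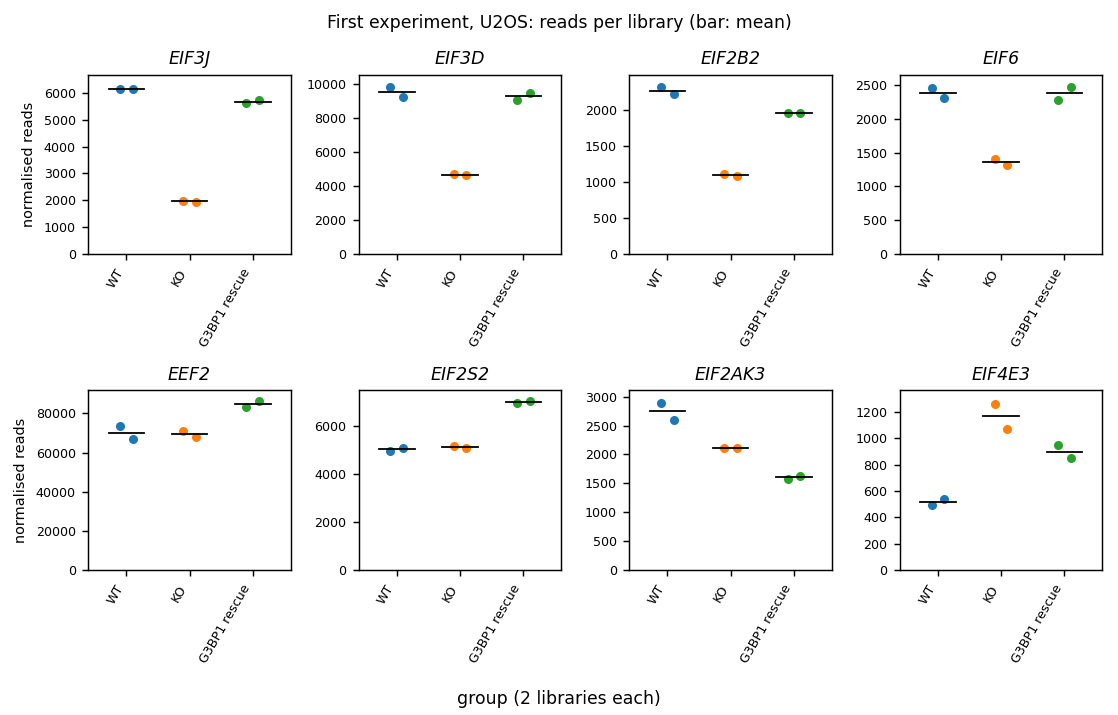
Normalised reads per library (points, vertical axes from 0) in wild-type, knockout and G3BP1 rescue U2OS cells for 8 members, with the group mean as a bar. EIF3J drops to 1970 and 1951 in knockout, EEF2 and EIF2S2 are level in wild type and knockout and higher in rescue, and EIF2AK3 is lowest in rescue.

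Fewer members were higher in knockout. EIF4E3, a cap-binding relative of eIF4E, had 491 and 540 reads in wild-type, 1261 and 1075 in knockout and 948 and 851 in rescue libraries. The 3 groups did not overlap, and the authors' deposited table gave 1.16 (SE 0.13, adjusted p = 9.25e-19) for knockout over wild type. EEF2K had 1264 and 1174 reads in wild-type against 2317 and 2353 in knockout, and 0.92 (SE 0.09) in the authors' deposited table. EEF1AKMT2 and EEF2KMT, which methylate eEF1A and eEF2, were at 0.63 (SE 0.18) and 0.61 (SE 0.10), and EIF4EBP2 at 0.53 (SE 0.06) in the authors' deposited table.

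Genes that lie beside several of these members in the genome had moved with them. For EIF6 the 10 nearest genes whose base mean reached 100 had a median log2 fold change, knockout over wild type, of -0.85, and all 10 were below 0. The median was -0.79 around EIF2B2 and around EIF5, 0.73 around EEF2K and 1.07 around EIF4E3, but -0.57 around EIF3J, -0.38 around EIF3D and -0.01 around EEF1A2, well short of the values of those 3 genes. Over 63 members Spearman's rho between a member's fold change and its neighbours' median was 0.51 for knockout against wild type and 0.22 for knockout against rescue, and over 59 members it was -0.12 for the second experiment's wild-type rescue over knockout. In knockout over rescue, where both groups were knockout cells, the neighbours' median was -0.34 around EIF6, -0.31 around EIF2B2 and -0.61 around EIF5. It was 0.09 around EEF2K, 0.52 around EIF4E3, -0.50 around EIF3J, -0.30 around EIF3D and -0.04 around EEF1A2. Points within a comparison share libraries, and whether copy number differs between the wild-type and knockout lines was not tested.

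Knockout against rescue moved more members in 1 direction. Of 66 members, 4 were higher and 50 lower in knockout in the authors' deposited table, where 16.1% and 21.5% of all 22945 tested genes, and 23.4% and 32.7% of those whose base mean reached 100, were, and the median was -0.36 beside 0.01. Both comparisons with rescue share its libraries, so their values are set side by side: wild type against rescue had 7 members higher and 46 lower in the authors' deposited table, where 15.2% and 20.4% of all 22861 genes, and 23.0% and 30.7% of the well-read ones, were, with a median of -0.28. EEF2 (ENSG00000167658), which had 73496 and 66896 reads in wild-type and 70889 and 67974 in knockout libraries, stood at 83385 and 86405 in rescue. Wild type and knockout overlapped and rescue was above both. EIF2S2, the beta subunit of eIF2, had 4974 and 5095 reads in wild-type, 5154 and 5098 in knockout and 6934 and 7019 in rescue, the same pattern, with -0.44 (SE 0.05) for knockout and -0.47 (SE 0.05) for wild type over rescue in the authors' deposited tables. The alpha and gamma subunits, EIF2S1 and EIF2S3, were at -0.35 and -0.30 for knockout and -0.47 and -0.41 for wild type over rescue.

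EIF5A and EIF4EBP1 differed between all 3 groups. EIF5A had 17776 and 16572 reads in wild-type, 20004 and 19604 in knockout and 27039 and 28107 in rescue libraries. EIF4EBP1 had 2293 and 2130, then 2991 and 2919, then 3582 and 3686 reads. Both were thus lowest in wild type and highest in rescue, with -0.68 (SE 0.05) and -0.71 (SE 0.07) for wild type over rescue in the authors' deposited table, where EEF2KMT was lowest at -0.81 (SE 0.09). EIF4A2, a helicase paralog of EIF4A1, had 20808 and 23055 reads in wild-type, 13777 and 14194 in knockout and 17893 and 18286 in rescue libraries, the opposite order for wild type. It was at 0.27 (SE 0.05) for wild type over rescue in the authors' deposited table, with EIF4ENIF1 (4E-T, which carries eIF4E into the nucleus and P-bodies) at 0.25 (SE 0.08) and EIF2B4 at 0.20 (SE 0.07).

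EIF2AK3 ran the other way. It had 2896 and 2600 reads in wild-type, 2120 and 2108 in knockout and 1579 and 1624 in rescue libraries, without overlap between groups. The authors' deposited tables gave 0.40 (SE 0.08) for knockout and 0.76 (SE 0.08) for wild type over rescue. The other members higher in knockout than in rescue were EIF4E3 at 0.37 (SE 0.11), EEF2K at 0.31 (SE 0.07) and EIF4EBP2 at 0.23 (SE 0.05) in the authors' deposited table.

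In the second experiment the rescue was set against knockout again, with other libraries. Of 67 tested members, 50 were higher in wild-type rescue and 6 lower in the authors' deposited table, where 23.0% and 19.1% of all 20738 tested genes, and 41.0% and 24.2% of those whose base mean reached 100, were. The members' median was 0.74, beside -0.03 for all genes and 0.18 for those whose base mean reached 100. Relative to that 0.18, 46 members were higher and 7 lower. Summed over all members but EEF1A1, knockout libraries held 132750 and 139044 normalised reads and wild-type rescue libraries 226284 and 226435. EEF1A1 alone made up 22.8 and 23.6% of member reads in knockout and 18.7 and 18.2% in wild-type rescue. The NTF2-deletion rescue, which shares the knockout libraries, had 51 of 66 members higher and 5 lower in the authors' deposited table, where 22.8% and 18.7% of all 20911 genes, and 40.5% and 24.0% of the well-read ones, were, with a median of 0.78, and 49 higher and 7 lower relative to its median gene of 0.17.

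Nearly every complex took part. In the authors' deposited table for wild-type rescue over knockout 13 of 14 eIF3 genes, all 5 eIF2B genes, 3 of 4 eIF2 genes, all 4 tested start-codon factors and 4 of 5 eEF1 and eEF2 genes were higher, and none of these was lower. EIF3B, a core eIF3 subunit with an RNA-recognition motif, had 4654 and 5080 reads in knockout, 11578 and 11646 in wild-type rescue and 12027 and 11775 in NTF2-deletion rescue libraries. All 4 rescue libraries were above both knockout libraries, with 1.23 (SE 0.05) and 1.28 (SE 0.06) in the authors' deposited tables. EIF1AX, which scans for the start codon with eIF1, had 428 and 427 reads in knockout, 1025 and 1038 in wild-type rescue and 972 and 1065 in NTF2-deletion rescue, and EIF2B3, the gamma subunit of eIF2B, 334 and 352, then 858 and 781, then 955 and 851. In both genes the rescue libraries were about level with each other and above both knockout libraries.

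The 3 main subunits of eIF2 all rose. EIF2S1, the subunit that the stress kinases phosphorylate, had 2341 and 2333 reads in knockout, 4785 and 4910 in wild-type rescue and 4838 and 5130 in NTF2-deletion rescue, and 1.03 (SE 0.06) for wild-type rescue in the authors' deposited table. EIF2S2 was at 0.94 (SE 0.08) and EIF2S3 at 0.66 (SE 0.07). The eIF4G scaffolds divided: EIF4G1 had 11676 and 12213 reads in knockout and 19164 and 18823 in wild-type rescue, while EIF4G3 had 1303 and 1151, then 873 and 891. EIF4G2, which supports cap-independent initiation, followed EIF4G1 at 0.65 (SE 0.04) in the authors' deposited table. The cap-binding protein EIF4E had 419 and 460 reads in knockout and 715 and 813 in wild-type rescue. EIF5A had 4751 and 5142, then 9715 and 9988, and its paralog EIF5A2 230 and 226, then 564 and 499, and no rescue library of either gene reached down to the knockout libraries.

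Among the elongation factors the values ranged from no call to 0.90. EEF2 had 15763 and 17961 reads in knockout and 31595 and 32423 in wild-type rescue, and 0.90 (SE 0.05) in the authors' deposited table. EEF1A1 had 39126 and 42964 reads in knockout and 51926 and 50466 in wild-type rescue, and 0.30 (SE 0.05) in the authors' deposited table. EEF1A2 had 2695 and 3015 reads in knockout and 2796 and 2798 in wild-type rescue. The groups overlapped, and the authors' deposited table gave -0.05 (SE 0.07, adjusted p = 0.661), although EEF1A2 had been at -0.91 (SE 0.05) for knockout over rescue in the first experiment. EIF3F was at 0.25 (SE 0.08) in the authors' deposited table, the lowest of the eIF3 genes.

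The members that fell were regulators and alternative forms. EIF2AK3 had 574 and 655 reads in knockout, 452 and 356 in wild-type rescue and 338 and 399 in NTF2-deletion rescue libraries. EIF4EBP2 (ENSG00000148730), a repressor of eIF4E, had 1749 and 1769, then 1059 and 1116, then 1204 and 1272 reads. EIF4E3 had 279 and 301, then 150 and 189, then 193 and 176 reads. In these 3 genes every rescue library was below both knockout libraries. The authors' deposited table gave -0.61 (SE 0.16), -0.71 (SE 0.09) and -0.77 (SE 0.22) for wild-type rescue, and -0.73 (SE 0.15), -0.51 (SE 0.09) and -0.64 (SE 0.20) for the NTF2-deletion rescue.

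EIF4G3 and EIF2AK2 were also lower in wild-type rescue, at -0.49 (SE 0.11) and -0.43 (SE 0.09) in the authors' deposited table, and EIF2AK1 at -0.20 (SE 0.07). EIF2AK4, by contrast, was higher at 0.68 (SE 0.08) in the authors' deposited table, so the 4 kinases of eIF2 alpha did not move together. EIF4EBP1 was higher at 0.76 (SE 0.11) while EIF4EBP2 was lower.

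The 2 experiments share no library. Of the 50 members lower in knockout than in rescue in the first, 46 were higher in wild-type rescue than in knockout in the second, which is 92% of either list. Over the 20402 genes tested in both, 2942 met both conditions, 62% of the first list and 61.9% of the second. Such calls were more common among members to begin with. In the second experiment 50 of the 66 members tested in both were higher in wild-type rescue, beside 23.0% of all tested genes. Of genes whose base mean reached 100, 41.0% were. The 92% and the 62% therefore start from unlike shares. EIF2AK3, EIF4E3 and EIF4EBP2 were higher in knockout in the first and lower in rescue in the second, and no member was called in opposite senses. Few could have been, as only 4 members were higher in knockout in the first and 6 lower in wild-type rescue in the second. The shares of all genes with these patterns were not computed. Over 59 members Pearson's r between the fold changes was -0.71 and Spearman's rho -0.68, a description across genes and not across samples. G3BP1 reads had risen far less on rescue in the first experiment, where the authors' deposited table gave -0.69 (SE 0.04) for knockout over rescue.

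**Figure D4:**
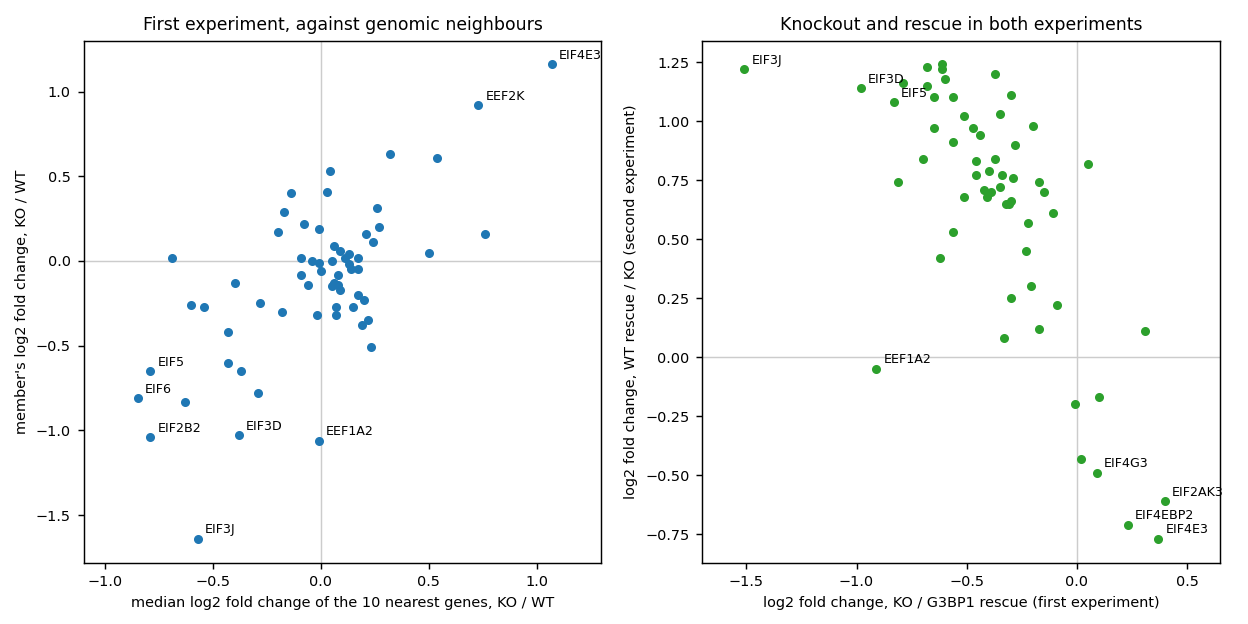
Left, each member's log2 fold change, knockout over wild type in the first experiment, against the median of its 10 nearest genes (63 members). Right, the second experiment's wild-type rescue over knockout (vertical) against the first experiment's knockout over rescue (horizontal) for 59 members; most points lie at the upper left, EEF1A2 lies near 0 on the vertical axis, and EIF2AK3, EIF4E3 and EIF4EBP2 lie at the lower right.

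Arsenite for 2 h changed few members. In knockout cells 5 of 63 were higher and 10 lower in the authors' deposited table, where 8.56% and 10.9% of all 15497 tested genes were. In wild-type rescue 6 were higher and 4 lower, where 8.18% and 12.2% of 13635 genes were. Relative to the median gene that split became 4 higher and 6 lower, so it has no settled direction. In the NTF2-deletion rescue 1 was higher and 3 lower, where 2.43% and 6.14% of 11578 genes were. Among genes whose base mean reached 100 the shares were 10.9% and 15.0% in knockout, 9.82% and 14.6% in wild-type rescue and 2.63% and 6.60% in NTF2-deletion rescue, so the members' counts were near or below the background. The medians of the members were -0.13, 0.00 and -0.01.

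The 5 that rose in knockout were EIF2AK3, EIF5, EIF1AD, EIF4A2 and EIF1. EIF4A2 (ENSG00000156976) had 3528 and 3461 reads in knockout and 4739 and 5148 with arsenite, and the authors' deposited table gave 0.49 (SE 0.07, adjusted p = 8.26e-11). It had 6317 and 6396 reads in wild-type rescue and 6414 and 6500 with arsenite, and 5237 and 5616 in NTF2-deletion rescue and 5302 and 5312 with arsenite. The treated and untreated libraries were apart in knockout, close in wild-type rescue and overlapping in the NTF2-deletion rescue.

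EIF5 (ENSG00000100664), which makes eIF2 hydrolyse GTP at the start codon, had 1187 and 1258 reads in knockout and 1832 and 1927 with arsenite. In wild-type rescue it had 2595 and 2667, then 3206 and 3089 with arsenite. In NTF2-deletion rescue it had 2808 and 2565, then 2997 and 3026. Treated libraries were above untreated in all 3 states, and the authors' deposited tables gave 0.61 (SE 0.09), 0.24 (SE 0.04) and 0.15 (SE 0.06, adjusted p = 0.12).

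EIF1 (ENSG00000173812), the partner of EIF5 in start codon choice, had 1883 and 2060 reads in knockout and 2697 and 2745 with arsenite. It had 3321 and 3490 reads in wild-type rescue and 3619 and 3678 with arsenite, and 3578 and 3422, then 3679 and 3676 in the NTF2-deletion rescue. Treated libraries were higher in each state, with a smaller gap in the rescues. EIF2AK3 had 574 and 655 reads in knockout and 994 and 1095 with arsenite, then 452 and 356 in wild-type rescue and 424 and 440 with arsenite. Its treated and untreated libraries were apart in knockout and overlapped in wild-type rescue, with 0.74 (SE 0.12) and 0.07 (SE 0.11) in the authors' deposited tables. EIF1AD, a nuclear protein named for its eIF1A-like domain, was at 0.56 (SE 0.13) in knockout, 0.40 (SE 0.07) in wild-type rescue and 0.23 (SE 0.09, adjusted p = 0.0895) in NTF2-deletion rescue in the authors' deposited tables.

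Elongation factors and eIF4G1 were among those that fell. EEF2 had 31595 and 32423 reads in wild-type rescue and 29272 and 29448 with arsenite, and was at -0.19 (SE 0.07), -0.14 (SE 0.03) and -0.17 (SE 0.03) in knockout, wild-type rescue and NTF2-deletion rescue in the authors' deposited tables. EIF4G1 was at -0.24 (SE 0.06), -0.11 (SE 0.03) and -0.16 (SE 0.04) in the authors' deposited tables. EEF1D, a subunit of the eEF1 exchange complex, was at -0.22 (SE 0.03) and -0.29 (SE 0.04) in the 2 rescues and at -0.06 (SE 0.06) in knockout, where it missed the test. EIF5B, which joins the subunits, was at 0.26 (SE 0.04) and 0.14 (SE 0.05) in the rescues and at 0.03 (SE 0.07) in knockout in the authors' deposited tables. EIF2B1, the alpha subunit of eIF2B, was at -0.19 (SE 0.06) in wild-type rescue, and EIF3A, EIF4H and EIF4B rose there by 0.13, 0.10 and 0.10 in the authors' deposited table. EIF2AK2, EEF1A2, EIF5A and EIF3E were the others with the lowest values in knockout, from -0.28 to -0.24 in the authors' deposited table.

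**Figure D5:**
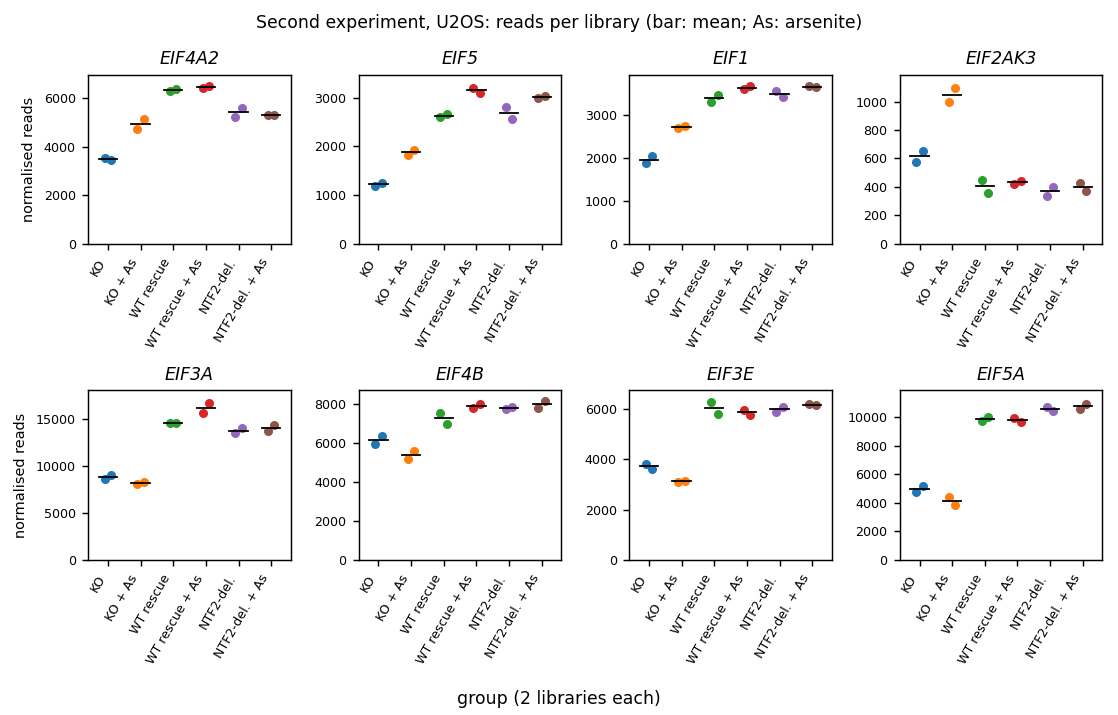
Normalised reads per library (points, vertical axes from 0) of 8 members in the 6 groups of the second experiment, with the group mean as a bar. EIF4A2, EIF5, EIF1 and EIF2AK3 are higher with arsenite in knockout, and EIF2AK3 is below the knockout level in all 8 rescue libraries.

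Whether the response differed between knockout and rescued cells was tested as a difference of fold changes, with adjustment over all genes whose base mean reached 10 in each of the tables. The test placed the wild-type rescue fold change below that of knockout for 4 members and above it for 2, of 63. Of all 15648 genes, 2.68% were below and 1.82% above. EIF4A2 differed by -0.49 (SE 0.08, adjusted p = 6.17e-08), EIF2AK3 by -0.67 (SE 0.16, adjusted p = 0.00164), EIF1 by -0.38 (SE 0.09) and EIF5 by -0.37 (SE 0.10). EIF4B, which stimulates the eIF4A helicase, differed by 0.29 (SE 0.08) and EIF3A by 0.24 (SE 0.07). EIF4B had 5969 and 6352 reads in knockout and 5187 and 5591 with arsenite, against 7546 and 7003 and then 7837 and 8024 in wild-type rescue, so it was lower with arsenite in knockout and higher in rescue.

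For the NTF2-deletion rescue minus knockout, 5 members passed with a difference below 0 and 2 with a difference above 0. Of 15442 genes, 3.08% were below and 4.04% above. The values were -0.53 (SE 0.09, adjusted p = 8.49e-08) for EIF4A2, -0.65 (SE 0.17) for EIF2AK3, -0.46 (SE 0.11) for EIF5, -0.39 (SE 0.10) for EIF1, -0.22 (SE 0.08, adjusted p = 0.0492) for EEF1D and 0.28 (SE 0.09) for both EIF3E and EIF5A. Both differences share the knockout response. The sign of a difference is not the size of a response. EEF1D fell in the NTF2-deletion rescue, at -0.29, and was not called in knockout. EIF3E and EIF5A fell in knockout, at -0.24 and -0.26, and were not called in that rescue. With shrinkage undone, EEF1D was at an adjusted p of 0.0524.

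Between the 2 rescues, no member passed the test for the difference of arsenite responses, of the rescues without arsenite or of the rescues with arsenite, where 0.328%, 0.0185% and 0.0785% of all genes did. At an unadjusted p under 0.05 there were 1, 1 and 3 of 63 members, beside 4.04%, 0.716% and 1.2% of all genes. EIF5B came nearest, at 1.47 in wild-type and 1.15 in NTF2-deletion rescue, each with arsenite over untreated knockout, a difference of 0.32 (SE 0.08, adjusted p = 0.0537). With genes of base mean 100 or more in both tables it passed, as 1 member called. It had 8675 and 9128 reads in wild-type and 7079 and 7309 in NTF2-deletion rescue with arsenite, without overlap. EIF4A2 had 6414 and 6500 against 5302 and 5312, also without overlap, and differed by 0.30 (SE 0.08, adjusted p = 0.149). The tests of the rescues without arsenite and of the rescues with arsenite count the spread of the shared knockout libraries in both tables. That widens their standard errors. The test of the arsenite responses of the rescues has no shared libraries, so this does not apply to it.

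With arsenite in both knockout and rescue, most members were again higher in rescue. The wild-type rescue difference from knockout was larger than 0 for 51 members and smaller for 3, of 63, where 26.1% and 19.3% of all 16533 genes were. For the NTF2-deletion rescue it was larger for 49 and smaller for 3, where 24.3% and 19.2% of 16248 genes were. EIF2AK3, EIF4EBP2 and EIF4G3 were the smaller ones in both, at -1.22 (SE 0.18), -0.45 (SE 0.12) and -0.58 (SE 0.14) for wild-type rescue. Relative to each table's median gene, 42 members were larger and 4 smaller for wild-type rescue, and 43 and 3 for NTF2-deletion rescue. Set against untreated knockout, wild-type rescue with arsenite had 50 members higher and 5 lower in the authors' deposited table, where 25.1% and 19.8% of 22192 genes, and 44.9% and 25.4% of the well-read ones, were, and 44 and 7 relative to its median gene of 0.22. EIF5B, EIF3J, EIF5, EIF3B and EIF2B3 led at 1.47 to 1.35 in the authors' deposited table. The NTF2-deletion rescue with arsenite had 50 higher and 5 lower, where 23.3% and 19.6% of 21660 genes, and 42.2% and 25.5% of the well-read ones, were, and 45 and 7 relative to its median gene of 0.19. EIF2B3, EIF3C, EIF3J, EIF5 and EIF3B led at 1.35 to 1.25, and EIF4EBP2, EIF2AK3, EIF4G3, EIF4E3 and EIF2AK2 were the lowest called in both, from -0.65 to -0.33 in the authors' deposited tables.

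Other genes of the pathway were a list of 37 release factors, cap and poly-A binding proteins, kinases and stress response genes. By the authors' deposited tables, wild-type rescue over knockout had 26 of them higher (70.3%) and 3 lower (8.11%). Of all tested genes 23.0% and 19.1% were, and of those whose base mean reached 100, 41.0% and 24.2%. The RIP had 17 (45.9%) and 14 (37.8%), beside 24.7% and 31.4% of all tested genes. That was near the 44.4% and 38.6% of genes whose base mean reached 100. Arsenite in knockout had 5 (13.5%) and 4 (10.8%), near the 8.56% and 10.9% of all tested genes. Of those whose base mean reached 100, 10.9% and 15.0% were. PPP1R15A (GADD34), which brings the phosphatase that reverses eIF2 alpha phosphorylation, had 353 and 326 reads in knockout and 2650 and 2513 with arsenite, then 2589 and 2528 in wild-type rescue and 4530 and 4812 with arsenite. The untreated rescue was thus at the level of the treated knockout. DDIT3 (CHOP), a transcription factor induced downstream of the kinases, had 86.9 and 89.6 reads in knockout and 983 and 982 with arsenite, then 335 and 323 in wild-type rescue and 1116 and 1096 with arsenite. ATF4, whose translation rises when eIF2 alpha is phosphorylated, had 1671 and 1740 reads in knockout and 3193 and 3270 with arsenite. In wild-type rescue ATF4 had 3451 and 3402 reads, then 4335 and 4349 with arsenite, so the untreated rescue was already above the treated knockout.

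The release factor ETF1 had 852 and 1016 reads in knockout and 2762 and 2882 in wild-type rescue, and the authors' deposited table gave 1.57 (SE 0.09). Ribosomal proteins, the other large family with pyrimidine starts, were higher in 79 of 86 (91.9%) and lower in 1 (1.16%) in that authors' deposited table, beside 23.0% and 19.1% of all tested genes, with a median of 0.56. Among genes whose base mean reached 100, 41.0% and 24.2% were. In RIP, GCN1, the activator of EIF2AK4, and MTOR were at -3.42 (SE 0.16) and -3.26 (SE 0.11) in the authors' deposited table, near the value of EIF4G1.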

How the data were processed

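The members and gene lists were chosen with earlier results of these data known. Reads were aligned with STAR 2.7.0f and compared with DESeq2 2.11.40.6, per the submitters' processing notes. Counting, annotation, genome build and use of strand are not given in the sources used here.

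The authors deposited 11 tables of 61541 genes. Base means are a signal, reads divided by size factors and averaged over a table's libraries by the authors. The log2 fold changes and standard errors are those of the authors' DESeq2 fits, shrunk towards 0 to a degree that differs between tables (prior width 0.278 to 2.06). The deposited Wald statistics are a score, and the deposited p-values are DESeq2's, adjusted over all genes by the authors.

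Whole reads per library were recovered from the steps of the base means (Python 3.11.15, numpy 2.4.6, pandas 2.3.3, scipy 1.17.1) for the 18 RNA-seq libraries and scaled by 1 size factor per library; the largest was 1.09 to 2.1 times the smallest within a table. Library order within a group is arbitrary. Recovery was tested on simulated data. Differences between tables were divided by the root of their summed squared standard errors (normal, two-sided, Benjamini-Hochberg). A call is an adjusted p under 0.05. The members named are the 5 highest and 5 lowest called in each comparison with a base mean of 100 or more, every member called in a difference test, and a fixed list of core factors where they passed or a result turned on them; up to 6 other pathway genes are named. GCN1 and MTOR were named after their values were seen. Scaling, filters on low values, shrinkage, threshold and leaving out each library were tried as alternatives.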

Additional observations from a re-analysis of the deposited data

Results flagged for a closer look

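For 9 members the response to arsenite differed between a rescue and the knockout, by a test of the difference itself, which is what singled them out. For wild-type rescue minus knockout the difference was -0.49 for EIF4A2, -0.67 for EIF2AK3, -0.38 for EIF1, -0.37 for EIF5, 0.29 for EIF4B and 0.24 for EIF3A, with adjusted p-values from 6.17e-08 to 0.0168. For the NTF2-deletion rescue minus knockout it was -0.53 for EIF4A2, -0.65 for EIF2AK3, -0.46 for EIF5, -0.39 for EIF1, -0.22 for EEF1D, 0.28 for EIF3E and 0.28 for EIF5A, with adjusted p-values from 8.49e-08 to 0.0492. Both lists rest on the same 4 knockout libraries. For EIF4A2, EIF1 and EIF5 the untreated rescue libraries were already above the treated knockout libraries, and for EIF2AK3 they were below the untreated ones. The part of that starting level in the differences was not tested.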

How the results depend on the processing

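Over 29 results and 142 alternatives, 136 were counted as unchanged. For a count that meant a similar number without a turned majority. For a median it meant a shift below the members' median standard error, so a median near 0 could cross it. A tie was not a turn: at an adjusted p under 0.01, arsenite in knockout had 5 members higher and 5 lower. With Wald statistics divided by their robust spread, 18 members were called in the RIP in place of 52. As for the other alternatives, the share of all genes called under this setting was not computed. With fold changes centred on the median gene, 10 members were called with arsenite in wild-type rescue and the majority turned, to 4 higher and 6 lower. At an adjusted p under 0.01 the NTF2-deletion rescue minus knockout arsenite difference held 4 members in place of 7. With a base mean of 100 or more in both tables, 1 member, EIF5B, differed between the rescues with arsenite in place of 0. Leaving out 1 library at a time moved the members' median from -0.12 to -0.04 for knockout over wild type, from -0.40 to -0.37 for knockout over rescue, from -0.34 to -0.26 for wild type over rescue, from 0.73 to 0.84 for wild-type rescue, from 0.76 to 0.83 for the NTF2-deletion rescue, from -0.14 to -0.10, 0.01 to 0.02 and -0.01 to 0.00 for arsenite in knockout, wild-type rescue and NTF2-deletion rescue, and from 0.71 to 0.84 and 0.78 to 0.86 for the rescues with arsenite over knockout. Those medians were log2 ratios of the recovered reads, not the deposited fold changes given above. For RIP no library could be left out, since its reads were not recovered per library. The causes were not tested.

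No paired analysis was possible because the recovered library values carry no replicate numbers. With 2 libraries a group, members of base mean 100 or more had standard errors of 0.04 to 0.24 for knockout over wild type.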
